A study of Homo sapiens with 8 samples.

Results

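The S100 and annexin genes, together with VIM and AHNAK, were followed through knockdown of PRMT9 in 2 human acute myeloid leukemia (AML) lines. Members were taken by name: every gene of the Molm13 count table whose symbol was S100 followed by A, B, G, P or Z and a number where there is one, or ANXA followed by a number, plus VIM and AHNAK, with pseudogenes left out. This gave 33 genes (19 S100 genes, 12 annexins, VIM and AHNAK) of the 57992 in the Molm13 table, and each of the 33 was also found by its gene identifier among the 58174 genes of the THP1 table.

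The study asked what loss of PRMT9, an arginine methyltransferase, does to AML cells. Poly(A) RNA was sequenced from Molm13 and THP1, both established human AML lines of monocytic character, each with a control short hairpin (shCtrl, genotype given as WT) or a hairpin against PRMT9 (shPRMT9, genotype given as PRMT9 knockdown). The 4 groups hold 2 libraries each, 8 in all, and doxycycline (Dox) induction was given to every group, controls included, because the hairpins were inducible. The study uses the names shPRMT9-1 and shPRMT9-2 for its knockdowns elsewhere too, so shPRMT9 libraries 1 and 2 may carry different hairpins, which the labels do not say. Nor is it stated that the libraries of a group came from separate cultures, so p-values measure only the spread between these libraries, which may be technical. The names of the THP1 libraries also contain the letters OCI, which the labels do not explain.

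S100 proteins are small calcium-binding proteins of the EF-hand type that mostly act as dimers, inside the cell on cytoskeletal and membrane partners and, once released, on receptors such as TLR4 and AGER (RAGE). Annexins bind acidic phospholipids in a calcium-dependent way and take part in membrane traffic, repair and the resolution of inflammation, and several form complexes with an S100 dimer. In the myeloid lineage, S100A8, S100A9 and S100A12 are abundant in monocytes and neutrophils, while VIM (vimentin) builds the intermediate filaments of mesenchymal and many blood cells and AHNAK is a very large scaffold protein that binds the S100A10 and ANXA2 complex under the plasma membrane.

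Libraries held 18720950 to 27356870 reads assigned to genes, and replicate libraries differed by more than counting noise (chi-square per gene of 1.32 to 2.06). PRMT9 itself was counted 332 and 289 times in Molm13 shCtrl and 41 and 56 times in Molm13 shPRMT9, a log2 fold change of -2.68 ± 0.14 (SE, adjusted p = 1.2e-21). In THP1 it was counted 317 and 352 times in shCtrl and 60 and 68 times in shPRMT9 (-2.29 ± 0.13, adjusted p = 3.5e-14). Of markers of cells that the cultures should not hold, erythroid genes summed to at most 0.273 counts per 1000000 reads (CPM) in any library and T cell genes to at most 3.05 CPM, and MS4A1, which defines B cells, was at 0 reads in 3 of the 4 groups. B cell genes summed to 39.7 to 43.1 CPM in Molm13, and to 4.84 to 5.15 CPM in THP1 shCtrl against 12.9 to 15.0 CPM in THP1 shPRMT9, where PAX5 was the 1 DEG of the list. Epithelial genes summed to 15.5 to 16.6 CPM in Molm13 shCtrl and 19.88 to 20.001 CPM in Molm13 shPRMT9, and to 1.58 to 1.80 against 2.30 to 2.50 CPM in THP1. KRT8 of that list rose in both lines (log2 0.60 ± 0.16, adjusted p = 0.00087, in Molm13, and 0.63 ± 0.24, adjusted p = 0.042, in THP1), while KRT5 and KRT14 were at 0 reads in every group. Of the defining monocyte genes, ITGAM, CSF1R and LYZ had enough reads to be tested in both lines, and CD14 in THP1 but not in Molm13.

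S100 and annexin transcripts were mostly higher after PRMT9 knockdown in both lines, but the genes with the largest rises were not the same. VIM and S100A10 rose by a similar size in both lines (2.42- to 2.97-fold). AHNAK and S100A4 rose 2.39- and 2.50-fold in Molm13, while in THP1 AHNAK rose 1.10-fold and S100A4 (1.03-fold) did not pass the test. S100A8 and S100A9 rose 3.40- and 3.65-fold in THP1 and 1.21- and 1.49-fold in Molm13. The 33 genes together took 3874 and 3899 reads per 1000000 in Molm13 shCtrl and 7917 and 7957 in Molm13 shPRMT9, and in THP1 3493 and 3515 became 4722 and 4746. Without AHNAK and VIM, the remaining members took 1859 and 1850 reads per 1000000 in Molm13 shCtrl against 2973 and 3012 in shPRMT9, and 1402 and 1389 against 1955 and 1935 in THP1. In bulk RNA, more RNA per cell and more cells that hold a transcript cannot be told apart.

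Of the 33 members, 22 had enough reads to be tested in Molm13 and 19 in THP1. A gene was called differentially expressed (DEG) at a false discovery rate (FDR) below 0.05 with a fold change above 1.5 or below its inverse and more than 1 RPKM (CPM per 1000 bases of exon) in at least 1 library. In Molm13, 10 of the 22 tested members were DEGs higher in shPRMT9, where 11.4% of all 16446 tested genes were, and 1 was lower, where 11.3% of all were. By the FDR alone, 18 of the 22 rose (33.4% of all tested genes did), 1 fell (33.5% of all did) and 3 did not pass. In THP1, 8 of the 19 tested members were DEGs higher in shPRMT9 (3.83% of the 16294 tested genes were) and none was lower (2.39% of all were). By the FDR alone, 14 of the 19 rose, against 19.0% of all genes, none fell, against 18.6% of all, and 5 did not pass. The median log2 fold change of the tested members was 0.64 in Molm13 and 0.60 in THP1, beside medians of 0.00047 and -0.00063 over all tested genes. Left out of the tests for low counts were 11 members in Molm13 and 14 in THP1. S100A1 and S100B in Molm13, and S100A12 and ANXA3 in THP1, reached the read minimum only through their shPRMT9 libraries. Their direction was set by that filter, so their part in these counts and medians is no evidence of a rise. The RPKM minimum was likewise met only in shPRMT9 by S100A3 in Molm13 and S100A12 in THP1.

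**Figure D1:**
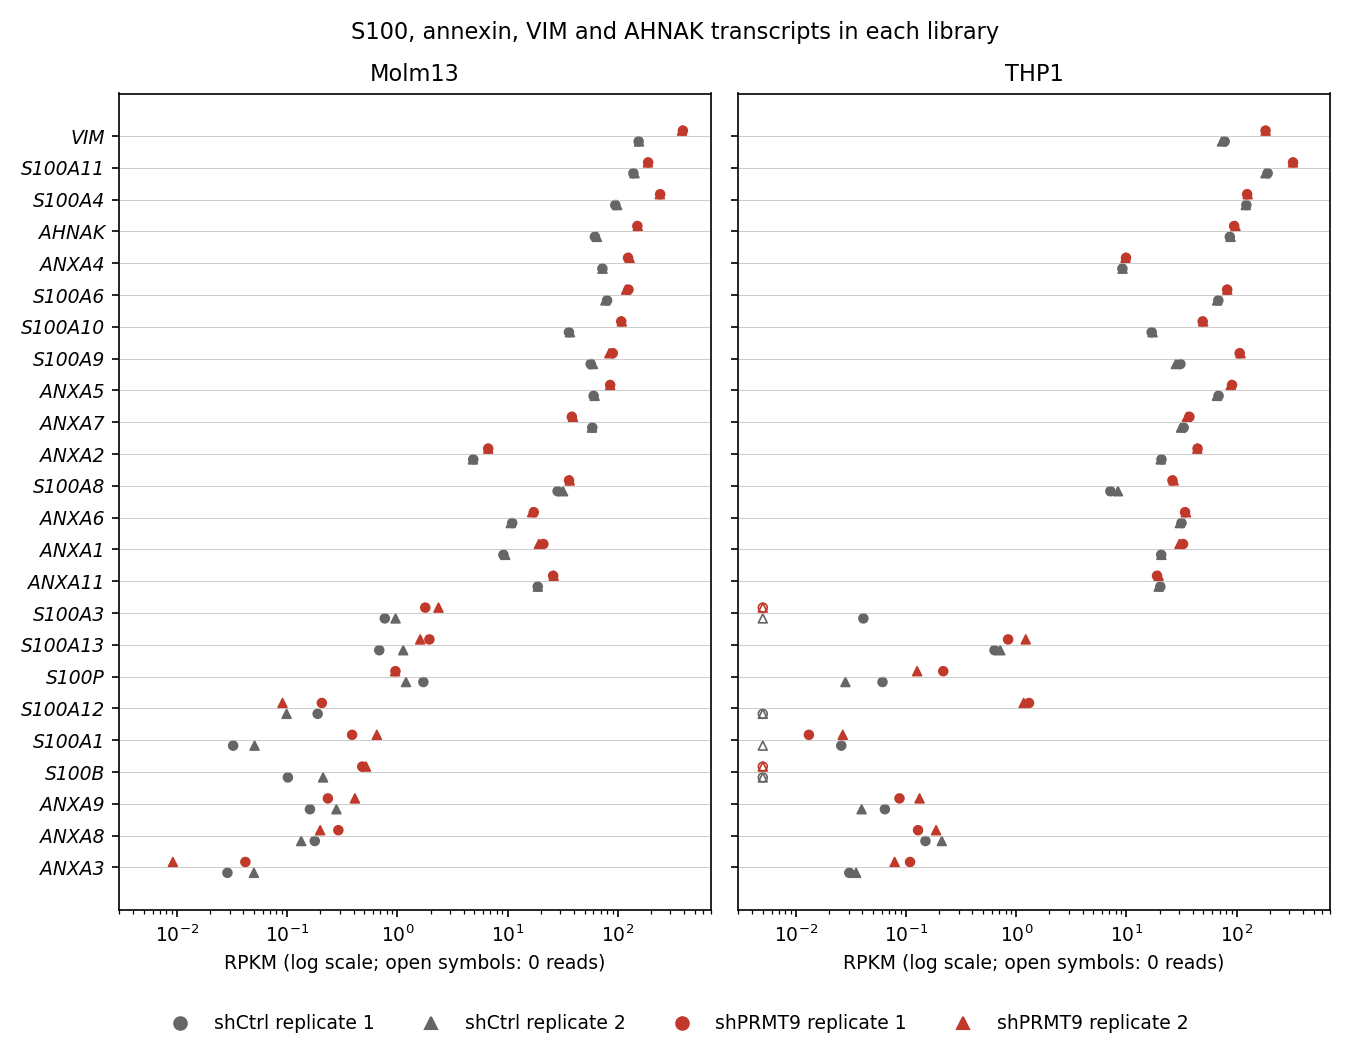
Level of each member tested in either line, in RPKM on a log axis, with 1 row per gene, grey symbols for shCtrl and red for shPRMT9, circles for replicate 1 and triangles for replicate 2; open symbols mark libraries with 0 reads, drawn at the left edge. VIM (156 to 387 RPKM in Molm13, 75.7 to 183 in THP1) has the highest level of any group, in Molm13 shPRMT9, and the red symbols of S100A8 and S100A9 stand clear of the grey ones in THP1 by much more than in Molm13.

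The S100 alarmins rose more in THP1 than in Molm13. S100A8 and S100A9 form calprotectin, the calcium- and zinc-binding heterodimer that myeloid cells release. S100A9 stood at 17.8 and 16.2 CPM in THP1 shCtrl and at 61.5 and 62.5 CPM in THP1 shPRMT9. The 2 knockdown libraries lay far above both controls, and the gene rose 3.65-fold (log2 1.87 ± 0.06, adjusted p = 1.8e-19). S100A8 went from 7.19 and 8.42 CPM to 26.3 and 26.96 CPM in THP1, a 3.40-fold rise (log2 1.77 ± 0.09, adjusted p = 1.7e-15). In Molm13 the same pair was at 32.8 and 34.4 CPM (S100A9) and 28.7 and 32.1 CPM (S100A8) in shCtrl. It was at 52.0 and 48.5 CPM and at 36.4 and 36.9 CPM in Molm13 shPRMT9. Groups again did not overlap, but the rises were smaller, 1.49-fold for S100A9 (log2 0.58 ± 0.06, adjusted p = 3.6e-12) and 1.21-fold for S100A8 (log2 0.27 ± 0.06, adjusted p = 0.00021), and neither was a DEG. S100A9 is the Molm13 gene just outside the 1.5-fold limit and S100A6 (1.55-fold) the one just inside it. The knockdown effect, as a log2 difference, was larger in THP1 than in Molm13 by 1.51 ± 0.11 for S100A8 (adjusted p = 2.2e-21) and by 1.30 ± 0.09 for S100A9 (adjusted p = 7.5e-24).

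S100A12, another myeloid alarmin and a ligand of AGER, had 0 reads in both THP1 shCtrl libraries and 17 and 15 reads in the THP1 shPRMT9 libraries. Against the limit that a count of 0 allows (3 reads over the group), it was at least 11.2-fold higher (adjusted p = 1e-05). S100A12 reached the read minimum only through these shPRMT9 libraries, so the test is no evidence of a rise. In Molm13 it had 2 and 1 reads in shCtrl and 2 and 1 in shPRMT9 and was not tested. The difference between the lines passed the FDR (adjusted p = 0.004), and no longer did without Molm13 shCtrl replicate 1 (adjusted p = 0.08). With S100A12 set at its lower bound, the THP1 median of the tested members was still 0.60.

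A RefSeq start of S100A8 (1 of 3) and that of S100A9 fall on the gene starts of the count table, so the bases before them are shown for this pair, and VIM is shown beside them as a member that rose in both lines by sizes whose difference did not pass the test. Each run gives the 250 bases before the start, 5′ to 3′ on the gene's strand (RefSeq, GRCh38.p14), at chr1:153391189-153391438 on the minus strand for S100A8, chr1:153357604-153357853 on the plus strand for S100A9 and chr10:17227991-17228240 on the plus strand for VIM, with none of it in a GENCODE v29 exon. Capitals mark matches to any of the 5 motifs searched on both strands.
S100A8 upstream: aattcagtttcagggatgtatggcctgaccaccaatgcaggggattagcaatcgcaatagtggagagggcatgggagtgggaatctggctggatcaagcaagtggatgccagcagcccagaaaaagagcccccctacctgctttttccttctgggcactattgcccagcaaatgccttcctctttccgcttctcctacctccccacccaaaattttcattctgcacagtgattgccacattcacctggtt
S100A9 upstream: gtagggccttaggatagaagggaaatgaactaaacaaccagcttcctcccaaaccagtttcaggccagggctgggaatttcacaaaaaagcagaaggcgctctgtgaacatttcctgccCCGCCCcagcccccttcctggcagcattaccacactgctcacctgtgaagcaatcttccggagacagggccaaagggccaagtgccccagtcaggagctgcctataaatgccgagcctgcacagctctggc
VIM upstream: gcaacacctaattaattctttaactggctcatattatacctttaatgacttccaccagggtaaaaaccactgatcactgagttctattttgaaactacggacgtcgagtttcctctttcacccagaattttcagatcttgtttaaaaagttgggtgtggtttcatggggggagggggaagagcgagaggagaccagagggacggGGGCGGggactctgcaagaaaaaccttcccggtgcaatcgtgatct
The capitals in S100A9 and VIM are each a GC box (GGGCGG or its reverse complement), which 42.6% of 35116 RefSeq promoters held in the same 250 bases, and S100A8 held no match to any of the 5 motifs. Of the 33 members, 30 had a promoter in the table, 41 starts in all. An interferon-stimulated response element core (GAAA, any 2 bases, GAAA) was in none of the 41 and in 3.02% of all promoters. A gamma-activated site (TTCNNNGAA) was in 3 of the 41 (7.32%; 6.57% of all) and an AP-1 site (TGANTCA) in 5 (12.2%; 6.57% of all). A hypoxia response core (ACGTG) was in 5 (12.2%; 18.5% of all), and a GC box in 16 (39.0%). The palindromic E-box counts as 2 hypoxia cores, 1 per strand. A match is only a match of letters in this window.

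Receptors for these secreted proteins were counted from a list of 12 genes. In THP1, 5 of the 11 tested were DEGs higher in shPRMT9 and none was lower. By the FDR, 8 rose and 2 fell. Among these 8, FPR3 (log2 5.23 ± 0.83) and FPR1 (2.47 ± 0.36) stayed under the RPKM minimum. Their reads are not given here, and a gene that reached the read minimum only through shPRMT9 libraries is no evidence of a rise. CD14, the co-receptor of TLR4, was counted 24 and 24 times in THP1 shCtrl and 116 and 122 times in shPRMT9 (log2 2.40 ± 0.21, adjusted p = 3.7e-10). LY96 (MD-2), the other TLR4 co-receptor, went from 13 and 13 to 62 and 52 reads (2.22 ± 0.30, adjusted p = 9.6e-07). TLR4 itself went the other way and fell in THP1 (-0.41 ± 0.05, adjusted p = 3.5e-08). Its change in Molm13 did not pass the test (0.15 ± 0.17, adjusted p = 0.43). CD36, a scavenger receptor that binds calprotectin with its fatty-acid cargo, went from 1088 and 1093 to 1916 and 1659 reads (0.81 ± 0.06, adjusted p = 7e-12). In Molm13, 1 of the 8 tested was a DEG higher (LY96, 24 and 17 to 55 and 68 reads, 1.58 ± 0.25, adjusted p = 6e-07) and 1 lower (ALCAM, an adhesion molecule, 1501 and 1417 to 611 and 716 reads, -1.14 ± 0.05, adjusted p = 2e-23). By the FDR, 6 of the 8 rose and 1 fell. The list's median log2 fold change was 0.70 in THP1 and 0.47 in Molm13, where those of all tested genes were near 0. Over all tested genes, 3.83% were DEGs higher and 2.39% lower in THP1, and 11.4% and 11.3% in Molm13. By the FDR, 19.0% of all rose and 18.6% fell in THP1, and 33.4% and 33.5% in Molm13.

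Monocyte and macrophage markers moved in the same libraries as the alarmins. Their summed level, over a list of 16, was 2214 to 2237 CPM in THP1 shCtrl and 3600.4 to 3752 CPM in THP1 shPRMT9, and 762 to 763 against 1276 to 1293 CPM in Molm13. Of the 13 tested in THP1, 10 were DEGs higher (3.83% of all tested genes were) and none lower (2.39% of all). By the FDR, 11 rose there and none fell. Of the 10 tested in Molm13, 5 were DEGs higher (11.4% of all) and 1 lower (11.3% of all). By the FDR, 6 rose there and 2 fell. Those that fell were MNDA (log2 -0.97 ± 0.11, adjusted p = 4e-10) and FCGR1A (-0.44 ± 0.11, adjusted p = 0.00046). MNDA rose in THP1 (0.60 ± 0.04, adjusted p = 2.7e-13). The medians were 0.81 in THP1 and 0.55 in Molm13 on the log2 scale. The markers at 0 reads were FCGR3A in Molm13 shCtrl, MRC1 and FCN1 in Molm13 shPRMT9 and MRC1 in THP1 shPRMT9. The integrin gene ITGAX, counted 97 and 89 times in Molm13 shCtrl and 314 and 414 times in shPRMT9, was among the DEGs with the largest changes. Neutrophil granule genes and CSF3R, a list of 11, summed to 3218 to 3429 CPM in THP1 shCtrl and 2302 to 2398 CPM in THP1 shPRMT9. In Molm13 they summed to 2160 to 2172 CPM against 2486 to 2516 CPM. LTF and LCN2 were at 0 reads in both THP1 groups. In Molm13, CEACAM8, CAMP and LCN2 were at 0 in both groups, with MMP8 also at 0 in shCtrl and LTF in shPRMT9. In THP1, 3 of 7 tested genes of the granule list were DEGs lower (2.39% of all were) and none was higher (3.83% of all). These were CTSG, MPO and PRTN3. In Molm13, 2 of 6 were DEGs higher, CSF3R and AZU1 (11.4% of all were), and none was lower (11.3% of all). By the FDR, 5 fell and none rose in THP1, and 3 rose and 3 fell in Molm13. Those that fell in Molm13 were MPO (log2 -0.56), CTSG (-0.44) and ELANE (-0.08). The medians were -0.44 in THP1 and 0.12 in Molm13. Beside both lists, 19.0% of all tested genes rose by the FDR and 18.6% fell in THP1. In Molm13 these shares were 33.4% and 33.5%. The part of these markers in the S100 result was not tested.

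Transcripts of S100A10, ANXA2 and AHNAK, whose proteins form a complex, all rose past the FDR in both lines, but by unequal sizes. The proteins were not measured in these libraries. S100A10 (p11) dimerizes and binds 2 annexin A2 chains, and the heterotetramer docks plasminogen and ion channels at the plasma membrane. S100A10 (chr1:151982915-151994390) was at 55.7 and 56.9 CPM in Molm13 shCtrl and at 166 and 168 CPM in Molm13 shPRMT9. It was at 26.1 and 26.6 CPM in THP1 shCtrl and at 75.9 and 76.7 CPM in THP1 shPRMT9. Replicates nearly coincided in each group, and the rise was 2.97-fold in Molm13 (log2 1.57 ± 0.04, adjusted p = 5.6e-33) and 2.89-fold in THP1 (log2 1.53 ± 0.05, adjusted p = 5.1e-19). The effects differed by -0.03 ± 0.07 on the log2 scale, which did not pass the test (adjusted p = 0.85). S100A10 and VIM also belong to the signature that the study built from these libraries, so their rise in both lines is no independent evidence.

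ANXA2 (chr15:60347134-60402883) rose in both lines and more in THP1. It was at 43.1 and 42.8 CPM in Molm13 shCtrl and 58.9 CPM in both Molm13 shPRMT9 libraries (1.37-fold, log2 0.46 ± 0.05, adjusted p = 1e-10). In THP1 it was at 183 and 181 CPM in shCtrl and 390 and 388 CPM in shPRMT9 (2.14-fold, log2 1.10 ± 0.03, adjusted p = 6.6e-21). The difference between lines was 0.65 ± 0.06 (adjusted p = 1.9e-17). ANXA2 has near-identical processed pseudogenes, and the 2 tables treat them unequally: ANXA2P1, ANXA2P2 and ANXA2P3 together held 45.1% to 46.6% of the reads of ANXA2 and these copies in Molm13, and 0.0639% to 0.125% in THP1. With the copies added, an alternative chosen after seeing the data, the knockdown effect was 0.46 ± 0.04 in Molm13 and 1.10 ± 0.03 in THP1, and the level in shCtrl differed between lines by 1.20 on the log2 scale instead of 2.08. Over all genes, processed pseudogenes took 4.41% to 4.74% of the reads in Molm13 libraries and 0.441% to 0.451% in THP1 libraries, so that any level set across the lines mixes a difference of cells with one of read assignment, and these cannot be told apart.

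**Figure D2:**
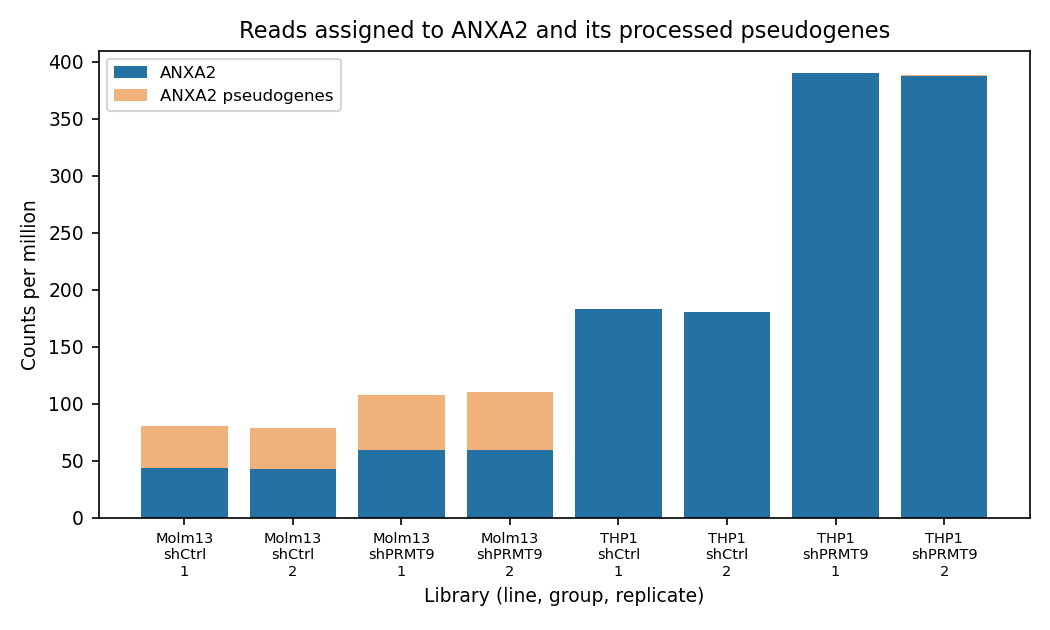
CPM assigned to ANXA2 (blue) and its 3 processed pseudogenes (orange), stacked, in each of the 8 libraries. The orange part is 45.1% to 46.6% of each Molm13 bar and at most 0.125% of each THP1 bar, while within each line the shPRMT9 bars are taller than the shCtrl bars.

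AHNAK (chr11:62433542-62556235), the scaffold that binds this complex, was at 1209 and 1262 CPM in Molm13 shCtrl and at 2935 and 2962 CPM in Molm13 shPRMT9. The rise was 2.39-fold (log2 1.25 ± 0.02, adjusted p = 7.5e-39). In THP1, AHNAK was at 1687 and 1715 CPM in shCtrl and at 1848 and 1900.2 CPM in shPRMT9. These groups did not overlap either, but the rise was 1.10-fold (log2 0.14 ± 0.03, adjusted p = 0.00014). The effect was smaller in THP1 by 1.10 ± 0.03 on the log2 scale (adjusted p = 1.4e-47). AHNAK alone took 31.3% to 32.1% of the members' reads in Molm13 shCtrl and 37.03% to 37.28% in Molm13 shPRMT9, but 48.3% to 49.5% in THP1 shCtrl and 38.8% to 39.5% in THP1 shPRMT9.

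Of 10 genes of plasminogen activation, the pathway that the S100A10 and ANXA2 complex serves at the cell surface, 2 of the 6 tested were DEGs higher in Molm13 and none was lower (5 rose and 1 fell by the FDR). PLAUR, the urokinase receptor, went from 747 and 682 to 1311 and 1416 reads in Molm13 (0.93 ± 0.05, adjusted p = 4.3e-20) and from 675 and 658 to 1024 and 1024 reads in THP1 (0.71 ± 0.06, adjusted p = 5.3e-10). In THP1, PLAUR was the 1 DEG higher of 8 tested and SERPINB2, the inhibitor PAI-2, the 1 lower (2818 and 3188 to 1112 and 976 reads, -1.43 ± 0.05, adjusted p = 7.3e-19); 4 rose and 1 fell by the FDR. The median log2 fold change was 0.57 in Molm13 and 0.20 in THP1. Of all tested genes, 11.4% were DEGs higher and 11.3% lower in Molm13, and 3.83% and 2.39% in THP1. By the FDR, 33.4% of all rose and 33.5% fell in Molm13, and 19.0% and 18.6% in THP1.

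S100A4 (chr1:153543613-153550136), a partner of non-muscle myosin, was at 97.5 and 101 CPM in Molm13 shCtrl and at 249 and 247 CPM in Molm13 shPRMT9, a 2.50-fold rise (log2 1.32 ± 0.03, adjusted p = 5.5e-33). THP1 held it at 126 and 124 CPM in shCtrl and at 128 and 129 CPM in shPRMT9 (log2 0.04 ± 0.04, adjusted p = 0.45). The control level was slightly higher in THP1 and the knockdown level was higher in Molm13. The effect was smaller in THP1 by 1.27 ± 0.05 on the log2 scale (adjusted p = 3e-39). S100A4 overlaps S100A3 on the same strand.

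S100A6 (calcyclin), which binds ANXA11, was at 77.8 and 75.0 CPM in Molm13 shCtrl and at 122 and 116 CPM in shPRMT9 (1.55-fold, log2 0.63 ± 0.04, adjusted p = 3.3e-18). The THP1 libraries held it at 66.2 and 64.6 CPM and then at 79.7 and 79.8 CPM (1.22-fold, log2 0.29 ± 0.05, adjusted p = 1e-05). The rise was smaller in THP1 by 0.33 ± 0.06 on the log2 scale (adjusted p = 2.1e-06). Its partner ANXA11 rose 1.39-fold in Molm13 (log2 0.47 ± 0.03, adjusted p = 4.5e-18) and was not past the test in THP1 (log2 -0.05 ± 0.04, adjusted p = 0.31), with a difference between lines of -0.51 ± 0.05 (adjusted p = 1.9e-16).

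S100A11 (calgizzarin), which binds the N-terminal tail of ANXA1, rose in both lines and more in THP1. It was at 94.4 and 96.7 CPM in Molm13 shCtrl and 128 CPM in both Molm13 shPRMT9 libraries (1.34-fold, log2 0.42 ± 0.04, adjusted p = 9e-14). Its THP1 level was 130 and 124 CPM in shCtrl and 221 CPM in both shPRMT9 libraries (1.74-fold, log2 0.80 ± 0.04, adjusted p = 1.7e-16). The rise was larger in THP1 by 0.39 ± 0.05 on the log2 scale (adjusted p = 4.6e-10), and by 0.39 ± 0.05 with the reads of its pseudogene added, which were 2.52% to 2.98% of the sum in Molm13 and 0% in THP1. ANXA1, which acts on formyl peptide receptors and limits inflammation, was at 41.8 and 43.5 CPM in Molm13 shCtrl and at 96.5 and 87.9 CPM in shPRMT9 (2.16-fold, log2 1.11 ± 0.05, adjusted p = 1.2e-23). In THP1 ANXA1 was at 94.2 and 94.7 CPM in shCtrl and at 149 and 138 CPM in shPRMT9 (1.52-fold, log2 0.60 ± 0.04, adjusted p = 2.1e-12). It was the THP1 member just inside the 1.5-fold limit, and ANXA5 (1.33-fold) the one just outside. ANXA1 fell below that limit, and was no THP1 DEG, with library sizes as the scaling (log2 0.57) and without THP1 shPRMT9 replicate 1 (log2 0.55), with the adjusted p past the threshold in both. The ANXA1 effect was smaller in THP1 by 0.50 ± 0.06 on the log2 scale (adjusted p = 1.7e-10), opposite in direction to its partner S100A11.

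Some S100 genes of low level were also higher in Molm13 shPRMT9. S100A3 was counted 15 and 18 times in Molm13 shCtrl and 32 and 48 times in shPRMT9 (2.41-fold, log2 1.27 ± 0.31, adjusted p = 0.00034). S100A13, which takes part in the non-classical release of growth factors, was counted 31 and 49 times and then 81 and 76 times (1.96-fold, log2 0.97 ± 0.22, adjusted p = 0.00012), and in THP1 36 and 44 times and then 47 and 67 times (log2 0.61 ± 0.24, adjusted p = 0.052). Both were Molm13 DEGs, on few reads. S100A1, better known from muscle, had 2 and 3 reads in Molm13 shCtrl and 22 and 42 in shPRMT9. Its ratio was 12.8 (95% exact counting interval 5.22 to 40.9, counting error only), with an adjusted p of 2.4e-08, and it stayed under the RPKM minimum. S100A1 reached the read minimum only through its shPRMT9 libraries, so this is no evidence of a rise. It had 0 to 2 reads in each THP1 library. S100A1 lies on the strand opposite to S100A13, which it overlaps, and whether reads were counted by strand is not given in the sources used here.

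S100B, a glial S100 protein, had 3 and 6 reads in Molm13 shCtrl and 13 and 16 in shPRMT9, a ratio of 3.23 (interval 1.49 to 7.76), and 0 in every THP1 library. S100B reached the read minimum only through its Molm13 shPRMT9 libraries, so this is no evidence of a rise. Its call (adjusted p = 0.0043) no longer passed with DESeq2 (adjusted p = 0.1). The log2 fold change of S100B was 1.66, against 1.22 without Molm13 shCtrl replicate 1 and 1.61 without Molm13 shPRMT9 replicate 2. S100P, which binds ezrin, had 45 and 30 reads in Molm13 shCtrl and 23 and 26 in shPRMT9 (log2 -0.61 ± 0.28, adjusted p = 0.054), a call that passed without Molm13 shCtrl replicate 2 (log2 -0.84, adjusted p = 0.018). In THP1 it had 2 and 1 reads and then 7 and 4, a ratio of 3.84 (interval 1.01 to 21.4). The difference between lines passed the test (adjusted p = 0.02), but not with DESeq2 (0.067) nor without Molm13 shCtrl replicate 1 (0.072), THP1 shCtrl replicate 2 (0.12) or THP1 shPRMT9 replicate 1 (0.17).

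Of the annexins, which bind membranes directly, ANXA4 had the largest difference in control level between the lines. ANXA4 (chr2:69644425-69827100) was at 803 and 804 CPM in Molm13 shCtrl and at 1372 and 1418 CPM in shPRMT9 (1.74-fold, log2 0.80 ± 0.02, adjusted p = 7.1e-31). Its THP1 level was 101 and 102 CPM in shCtrl and 109 and 108 CPM in shPRMT9 (log2 0.10 ± 0.04, adjusted p = 0.053). The effect was smaller in THP1 by 0.68 ± 0.04 on the log2 scale (adjusted p = 5.7e-26), and the shCtrl level was lower in THP1 by 2.98 ± 0.03 on that scale (adjusted p = 2.3e-89). AAK1, which overlaps ANXA4 on the opposite strand, had 3570 to 4586 reads in the shCtrl libraries and 2332 to 2849 in the shPRMT9 libraries of the 2 lines.

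ANXA6, the annexin with a doubled core, rose 1.56-fold in Molm13 (59.9 and 58.1 CPM in shCtrl, 94.0 and 90.8 in shPRMT9, log2 0.65 ± 0.04, adjusted p = 3.2e-17). In THP1 it rose 1.11-fold (171 and 166 CPM, then 185 and 188, log2 0.15 ± 0.04, adjusted p = 0.0017). Its effect was smaller in THP1 by 0.49 ± 0.06 on the log2 scale (adjusted p = 1.6e-12). ANXA5, the phosphatidylserine binder used as an apoptosis probe, rose in both lines, 1.40-fold in Molm13 (log2 0.48 ± 0.03, adjusted p = 4.4e-19) and 1.33-fold in THP1 (log2 0.41 ± 0.03, adjusted p = 7.1e-11). The ANXA5 effects differed by -0.06 ± 0.04 (adjusted p = 0.31), which passed only with library sizes as the scaling (-0.10, adjusted p = 0.041).

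ANXA7 (synexin) was the 1 tested member that fell past the FDR, and only in Molm13. It was at 168 and 167 CPM in Molm13 shCtrl and at 110 and 112 CPM in shPRMT9 (0.662-fold, log2 -0.59 ± 0.03, adjusted p = 7.9e-20). In THP1 it was at 94.6 and 89.5 CPM in shCtrl and at 107 and 101 CPM in shPRMT9, which passed the test in the other direction (1.13-fold, log2 0.18 ± 0.04, adjusted p = 0.0017), but not without THP1 shCtrl replicate 2 (log2 0.13, adjusted p = 0.061). The difference was 0.78 ± 0.05 on the log2 scale (adjusted p = 3.8e-23). The fall in Molm13 lies at the fold limit and was not a DEG without Molm13 shPRMT9 replicate 1 (log2 -0.57, with the adjusted p still past the threshold).

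Among annexins with few reads, ANXA3 was counted 4 and 5 times in THP1 shCtrl and 14 and 10 times in shPRMT9 (adjusted p = 0.039), a call that was lost in 5 of 8 alternatives, and 1 to 5 times in each Molm13 library. ANXA8 had 13 to 29 reads in each library and passed no test (adjusted p = 0.11 in Molm13 and 0.71 in THP1), and its near-identical copy ANXA8L1 had at most 5. ANXA9 had 6 and 10 reads in Molm13 shCtrl and 8 and 16 in shPRMT9 (adjusted p = 0.29) and 2 to 6 in each THP1 library. ANXA10 had 0 reads in every library, and ANXA13 had 2 reads in THP1 shPRMT9 replicate 1 and 0 elsewhere. Of the S100 genes not tested in either line, S100A14 and S100Z had 0 reads throughout, S100A16, S100A7 and S100G had 1 read in 1 library each, S100A5 had at most 2 and S100A2 had 1 to 10.

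Of 18 membrane repair genes in the tables, in a pathway to which annexins contribute, 4 of the 16 tested were DEGs higher in Molm13 and none was lower (12 rose and 2 fell by the FDR). EHD2 (7 and 4 to 110 and 115 reads), CAV1 (52 and 70 to 213 and 227 reads) and MYOF (669 and 848 to 1639 and 1896 reads), which shape or mend the plasma membrane, had the largest changes among these DEGs. In THP1, 1 of 15 was higher (MYOF, 419 and 525 to 766 and 749 reads) and 1 lower (CAV1, 1998 and 2138 to 1150 and 1072 reads), with 6 rising and 2 falling by the FDR, and the medians were 0.31 in Molm13 and 0.10 in THP1. CAV1 thus changed in opposite directions in the 2 lines (log2 1.85 ± 0.14, adjusted p = 2.7e-15, in Molm13, and -0.80 ± 0.05, adjusted p = 2.2e-13, in THP1). Other calcium-binding proteins, a list of 14 genes such as calmodulins, gave 1 DEG higher (GCA, grancalcin) and 1 lower (RCN2) of 13 tested in Molm13 and none in either direction of 13 in THP1. By the FDR, 3 of these rose and 5 fell in Molm13, and 3 rose and 4 fell in THP1, with medians of -0.0015 and -0.03 on the log2 scale. For both lists, the shares of all tested genes were 11.4% DEGs higher and 11.3% lower in Molm13, and 3.83% and 2.39% in THP1. By the FDR these shares were 33.4% and 33.5% in Molm13, and 19.0% and 18.6% in THP1.

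VIM (chr10:17228259-17237593) was at 799 and 805 CPM in Molm13 shCtrl and at 2015 and 1975 CPM in Molm13 shPRMT9. In THP1 it was at 402 and 380 CPM in shCtrl and at 944 and 946 CPM in shPRMT9. The 2 groups were far apart in each line and the rise was 2.49-fold in Molm13 (log2 1.31 ± 0.02, adjusted p = 2.3e-39) and 2.42-fold in THP1 (log2 1.27 ± 0.03, adjusted p = 8.7e-23). The effects differed by -0.03 ± 0.04 on the log2 scale (adjusted p = 0.63), and by -0.10 without THP1 shCtrl replicate 2 (adjusted p = 0.045). VIM-AS1, on the opposite strand, had 192 to 535 reads per library, against 10285 to 42022 for VIM, and whether reads were counted by strand is not given. Mesenchymal markers other than VIM, a list of 6, summed to at most 3.26 CPM in any library. The sums were 0.69 to 0.77 CPM in Molm13 shCtrl against 1.22 to 1.34 in shPRMT9, and 1.64 to 2.20 against 3.02 to 3.26 in THP1. PDGFRB of that list was higher in shPRMT9 in both lines, at low level. Its log2 fold change was 1.97 ± 0.51 in Molm13 (adjusted p = 0.00083) and 1.15 ± 0.34 in THP1 (adjusted p = 0.0082). At such sums PDGFRB may have reached the read minimum only through its shPRMT9 libraries. These values are therefore no evidence of a rise.

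Other intermediate filament genes, a list of 17, gave 2 DEGs higher and 2 lower of 11 tested in Molm13 (8 rose and 3 fell by the FDR). They gave 1 higher and none lower of 8 in THP1 (5 rose and 1 fell), and the medians were 0.73 and 0.30 on the log2 scale. Of all tested genes, 11.4% were DEGs higher and 11.3% lower in Molm13 (33.4% and 33.5% by the FDR). In THP1 these shares were 3.83% and 2.39% (19.0% and 18.6% by the FDR). Among the 8 Molm13 rises, NEFM (log2 7.98 ± 0.88), NES (3.70 ± 0.70), DES (2.93 ± 0.36) and KRT7 (2.83 ± 0.61) stayed under the RPKM minimum. Their reads are not given here. Where such a gene reached the read minimum only through shPRMT9 libraries, its part in the count and median is no evidence of a rise. LMNA, which encodes lamins A and C, went from 1376 and 1413 to 2576 and 2920 reads in Molm13 (log2 0.98 ± 0.04, adjusted p = 4.6e-25) and from 3602 and 3690 to 5940 and 6003 reads in THP1 (0.81 ± 0.04, adjusted p = 1.7e-16). LMNB2, a B-type lamin, fell in Molm13 from 5246 and 5039 to 2873 and 3071 reads (-0.79 ± 0.03, adjusted p = 1.7e-25), as did the neurofilament gene NEFH from 526 and 442 to 272 and 299 reads.

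Most S100 genes sit in 1 cluster on chromosome 1q21, and their neighbours there were followed as well. The window from S100A10 to S100A1 with 500000 bases on each side (chr1:151482915-154132039) holds 15 members and 140 other genes. In Molm13, 9 of the 15 members were tested and all 9 of these rose by the FDR (33.4% of all tested genes did), 5 of them DEGs (11.4% of all), with a median log2 fold change of 0.97. Of the 27 other genes tested there, 11 rose and 9 fell by the FDR, 2 and 2 as DEGs, with a median of 0.10. In THP1, 6 of 8 tested members rose by the FDR (19.0% of all did), 5 of them DEGs (3.83% of all, median 1.16). Of 25 other genes 2 rose and 5 fell, none of them a DEG (median 0.00082). S100A1 in Molm13 and S100A12 in THP1 are among the members that rose, but passed the filter only through their shPRMT9 libraries. ILF2, which lies beside the cluster and encodes a subunit of a factor that binds double-stranded RNA, fell in Molm13 from 8930 and 8559 to 4898 and 5444 reads (log2 -0.76 ± 0.03, adjusted p = 1.3e-27). LAPTM4BP1, a pseudogene between S100A12 and S100A8, also fell there (268 and 220 to 125 and 154 reads).

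**Figure D3:**
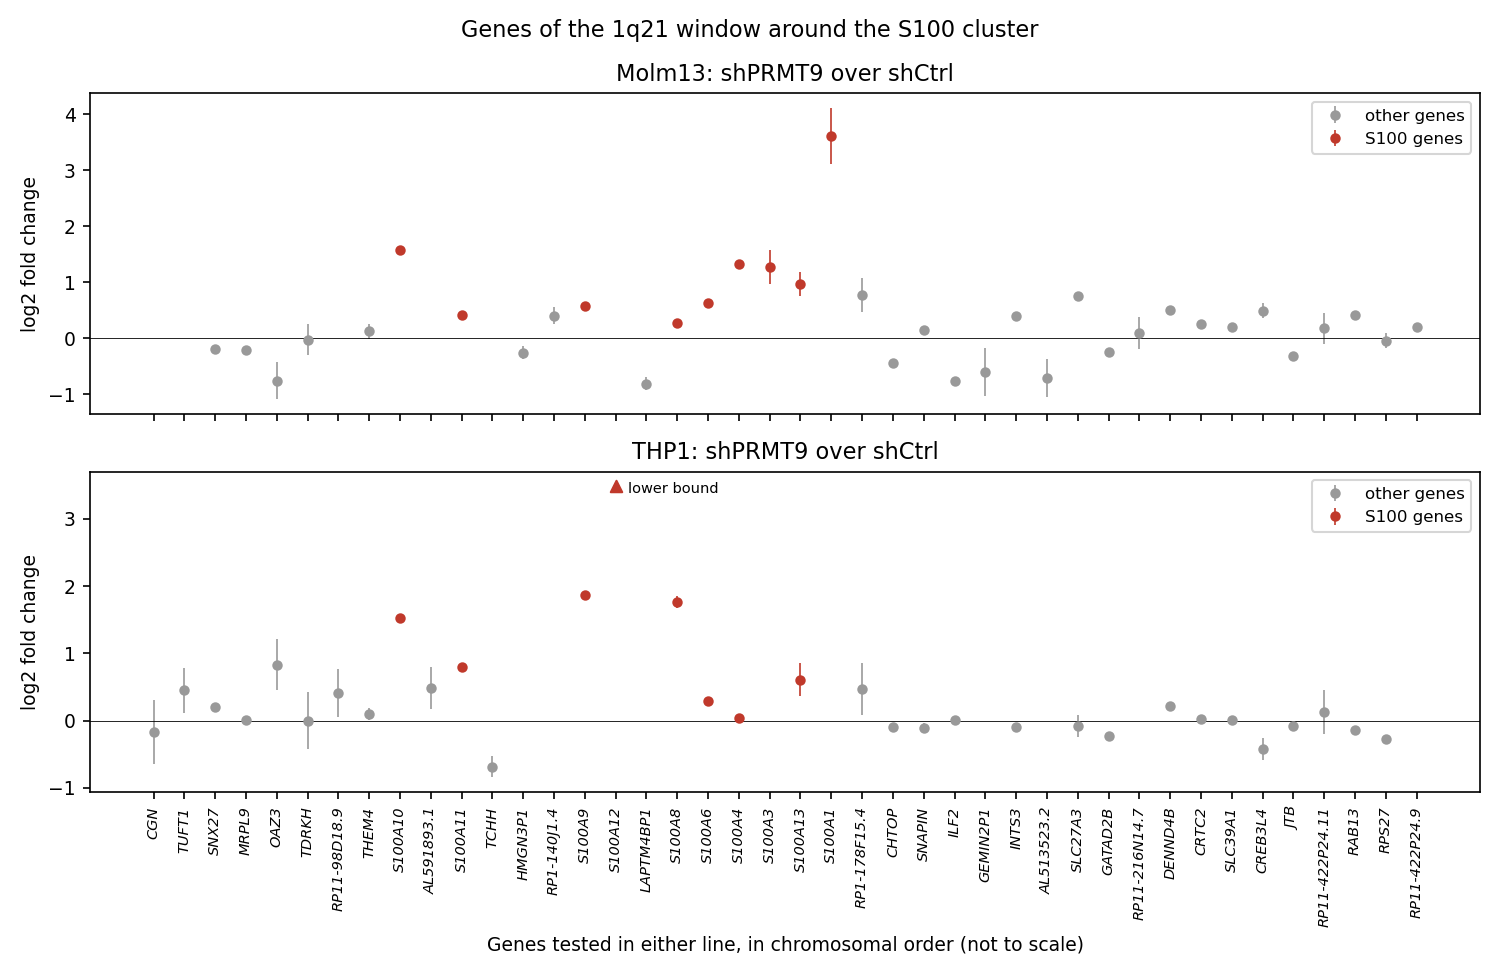
Log2 fold change (shPRMT9 over shCtrl) of every gene of the 1q21 window tested in either line, in chromosomal order, with standard errors; S100 genes are red and others grey, and the triangle is the lower bound for S100A12. In Molm13 the 9 red points lie above 0, whereas the grey points lie on both sides (median 0.10), and in THP1 the S100A8 and S100A9 points (1.77 and 1.87) stand highest apart from the bound.

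Set side by side, the 2 lines share no library. Of 17 members tested in both, 11 rose by the FDR in both, where 11.5% of the 13476 genes tested in both did, and 3 were DEGs higher in both (VIM, S100A10 and ANXA1), where 2.06% of all were; with ANXA1 under the THP1 fold limit, as in the alternatives given above, 2 remained. The correlation of the effects across these 17 genes was 0.11 by Pearson and -0.09 by Spearman (0.30 and 0.21 over all 13476), as a description over genes that are not independent replicates. In the test of the difference, 23 members were tested. The effect was higher in THP1 for 7 (22.8% of all 19288 genes were) and lower for 7 (19.4% of all were), and 9 did not pass. The effect was higher in THP1 by more than 2-fold for S100A8, S100A9, S100A12 and S100P, 4 of the 23 (3.36% of all genes were). It was lower by more than 2-fold for S100A4 and AHNAK, 2 of the 23 (6.37% of all were). S100A12 entered this test only through the THP1 shPRMT9 libraries, where it was high.

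**Figure D4:**
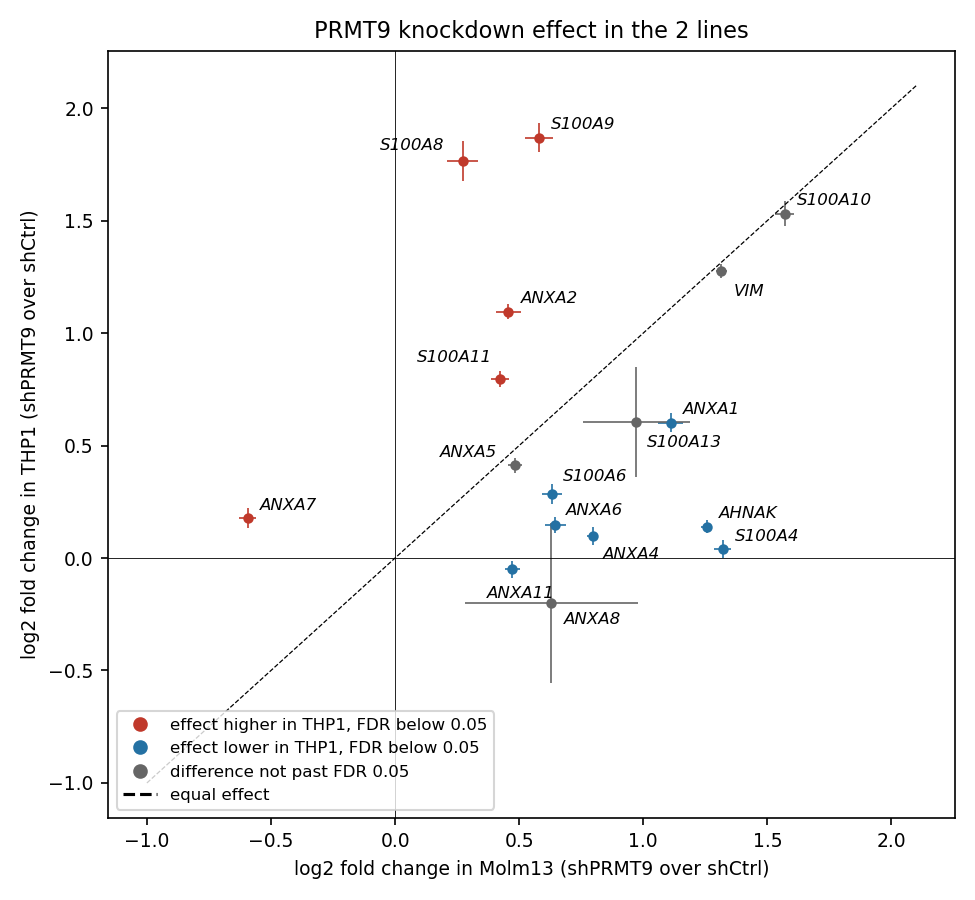
Log2 fold change after PRMT9 knockdown in Molm13 (x axis) and THP1 (y axis) for the 17 members tested in both lines, with standard errors; red marks a larger effect in THP1, blue a smaller one, grey a difference that did not pass the FDR, and the dashed line equal effects. VIM and S100A10 lie on the line, S100A8, S100A9, ANXA2, S100A11 and ANXA7 above it, and AHNAK and S100A4 near 0 on the y axis at 1.25 and 1.32 on the x axis.

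The lines also differed in their control levels. In shCtrl, 8 of 23 tested members were higher in THP1 (40.1% of all genes were) and 12 were lower (42.7% of all were). ANXA6 (log2 1.52 ± 0.04), ANXA1 (1.15 ± 0.05) and ANXA2 (2.08 ± 0.04, or 1.20 with pseudogene reads) were higher in THP1 by more than 2-fold. ANXA4, S100A8 (-1.95 ± 0.09), S100A10 (-1.09 ± 0.05) and VIM (-1.04 ± 0.03) were lower by more than 2-fold. S100A3 had 33 reads over Molm13 shCtrl and 1 over THP1 shCtrl, a ratio of 43.6 (counting interval 7.30 to 1773), and S100P 75 and 3, a ratio of 33.0 (10.9 to 164). S100B was at least 3.96-fold higher in Molm13 shCtrl, where it had 9 reads against 0. These comparisons use the same shCtrl libraries as the knockdown effects.

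Per length, the order of the members' levels changed with knockdown. In Molm13 shCtrl, VIM led with 156 ± 0.80 RPKM (SD, n = 2), followed by S100A11 with 140 ± 2.4, S100A4 with 97.0 ± 2.6 and S100A6 with 78.7 ± 2.0 RPKM. In Molm13 shPRMT9, VIM stood at 387 ± 5.4 and S100A4, now second, at 242 ± 1.3 RPKM. In THP1 shCtrl, S100A11 led with 187 ± 5.9, before S100A4 with 122 ± 0.98, AHNAK with 87.4 ± 0.99 and VIM with 75.7 ± 3.0 RPKM. In THP1 shPRMT9, S100A11 stood at 325 ± 0.41, VIM, now second, at 183 ± 0.28, and S100A9 moved from rank 9 (29.5 ± 2.0 RPKM) to rank 4 (107 ± 1.3 RPKM). Among members above 1 RPKM, the libraries of neighbours in this order overlapped for 1 of 15 pairs in Molm13 shCtrl (ANXA7 with S100A9), 3 of 16 in Molm13 shPRMT9 (among them ANXA4 with S100A6), 4 of 14 in THP1 shCtrl (among them S100A6 with ANXA5) and 1 of 16 in THP1 shPRMT9 (S100A12 with S100A13).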

How the data were processed

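Poly(A) RNA of 8 libraries was sequenced on an Illumina HiSeq system. The deposited values are raw read counts per gene, 1 table per line. The submitters' processing notes name hg38, TopHat2 2.0.8, HTSeq 0.11.2 and edgeR 3.30.3; the annotation, the strand setting and the treatment of reads with several matches are not given in the sources used here. All 33 members have the coordinates of GENCODE v29. Counts were tested with edgeR 4.0.16 (R 4.3.3): TMM scaling, filterByExpr, the quasi-likelihood test and Benjamini-Hochberg adjustment over all tested genes, each line on its own. Differences between lines and between shCtrl groups came from 1 fit of all 8 libraries. Standard errors are the log2 fold change over the root of F. CPM uses TMM library sizes, and RPKM divides it by the exon length in the Molm13 table. DEG limits follow the study's methods (FDR 0.05, 1.5-fold, RPKM 1). Every member is accounted for; of each gene list, up to 3 DEGs with the largest changes per line were named. A few genes of these lists enter the counts but are not reported here by name. Members and lists were chosen with earlier results of these data known. Intervals and floors cover counting error only. The fits were checked on simulated data. Alternatives were other scalings, no filter, DESeq2 1.42.0, the replicate block, a joint fit, a 2-fold limit, each library left out, and added pseudogene reads.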

Additional observations from a re-analysis of the deposited data

Results flagged for a closer look

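The knockdown effect differed between the 2 lines at an FDR below 0.05 (edgeR quasi-likelihood test of the difference, Benjamini-Hochberg) for 14 of the 23 members tested, given here as the log2 effect in THP1 minus that in Molm13. It was lower in THP1 for S100A4 (-1.27), AHNAK (-1.10), ANXA4 (-0.68), ANXA11 (-0.51), ANXA1 (-0.50), ANXA6 (-0.49) and S100A6 (-0.33). It was higher in THP1 for S100A11 (0.39), ANXA2 (0.65), ANXA7 (0.78), S100A9 (1.30), S100A8 (1.51), S100P (2.49) and S100A12 (6.90). The last 2 values rest on few reads and depend on the prior count of the fit, since S100A12 had 0 reads in THP1 shCtrl and S100P had 3.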

How the results depend on the processing

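Of the members' tests, none changed sign past the threshold under any alternative. In Molm13 the number of DEG members lower in shPRMT9 was 1, and 2 with no filter on low counts, 0 with a 2-fold limit and 0 to 2 with 1 library left out; by the FDR alone it was 1, and 2 with no filter and 1 to 2 with 1 library left out, the added gene being S100P. With the 2-fold limit, 6 Molm13 members were DEGs higher in shPRMT9 in place of 10. Of the differences between lines, 4 higher and 2 lower in THP1 exceeded 2-fold in place of 7 and 7, and 3 members were higher in shCtrl THP1 by more than 2-fold in place of 8. With 1 library left out, where the lone library is assumed to vary like the other groups, the Molm13 median ranged from 0.66 to 0.78 and the THP1 median from 0.43 to 0.60, and the cause was not tested; without THP1 shPRMT9 replicate 2 the THP1 median was 0.43. Replicate numbers did not pair the libraries (correlation of deviations -0.08 in Molm13 and -0.01 in THP1). With the replicate block, the DEG members higher in shPRMT9 were 10 in Molm13 and 9 in THP1, those past the FDR 19 and 15 in place of 19 and 14, and DEGs over all genes 3711 and 1019 in place of 3744 and 1013. The S100A12 level in shCtrl, 3 reads against 0, lost its call in 11 of 13 alternatives; ANXA9 (3 of 13) and ANXA11 (4 of 13) lost theirs between shCtrl groups in some. S100A13 in THP1 passed with the replicate block (adjusted p = 0.039), in the joint fit (0.037) and without THP1 shPRMT9 replicate 1 (0.011), and ANXA4 in THP1 in the joint fit (0.012).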
